A study of Homo sapiens with 2 samples.

Results

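The RUNX loci are the accessible regions in and around RUNX1, RUNX2 and RUNX3, the 3 genes of the RUNX family. A region of the deposited list was taken where its midpoint lay within the hg19 span of a RUNX gene or at most 150 kb from either end. This gave 15 of the 23612 regions: 4 at RUNX3, 7 at RUNX1 and 4 at RUNX2. Open chromatin was profiled by ATAC-seq, an assay that uses a transposase to tag exposed DNA, in untreated GM12878, an established human B lymphoblastoid line immortalised by Epstein-Barr virus. The 2 libraries, each of 50000 cells and from a culture of its own, form 1 group without a comparison of conditions. A single list without counts was deposited for both, so the depth of each library is unknown, no value has a replicate error, and no test over samples exists. Each region carries the authors' score, a whole number from 541 up to a cap of 1000, for which no label gives a scale. The list's name reads as a cut at an irreproducible discovery rate (IDR) of 0.05, a measure of how far replicates agree in their ranking of regions. A score scaled from that rate in the usual way would begin at 540, so a high score may stand for reproducibility between the cultures.

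RUNX proteins bind DNA through the Runt domain, which recognises the core TGTGGT, and do so together with CBFB, a partner that all 3 share. RUNX1 is needed to form blood stem cells, RUNX2 drives bone formation, and RUNX3 is known for its roles in T cells and neurons. Each gene is known to be read from a distal promoter, P1, and a proximal one, P2, which give proteins with different first residues. In B cells transformed by Epstein-Barr virus, RUNX3 is known as the dominant member, induced by the viral factor EBNA2, and RUNX3 protein is known to repress RUNX1. RNA was not analysed here.

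The promoter sequences below are shown because the genes differed in whether a region was listed at their starts. They are from RefSeq in the build GRCh38.p14, which the table gives as windows of 250 bases before to 50 after a start. A window was found for 5 RUNX starts, namely RUNX3 P1 and P2, RUNX1 P2, and RUNX2 P1 and P2. The 250 bases before the start are printed from 5' to 3' on the strand of the gene. In the P1 sequences the capitals mark the RUNX core, TGTGGT or its reverse complement ACCACA. RUNX3 P1 (chr1:24965011-24965260, minus strand) and RUNX2 P1 (chr6:45328080-45328329, plus strand) read as follows.
RUNX3 P1: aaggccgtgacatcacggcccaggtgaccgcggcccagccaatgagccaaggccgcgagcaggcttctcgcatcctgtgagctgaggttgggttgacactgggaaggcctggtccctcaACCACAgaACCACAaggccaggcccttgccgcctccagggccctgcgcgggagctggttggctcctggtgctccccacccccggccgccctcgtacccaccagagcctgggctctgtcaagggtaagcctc
RUNX2 P1: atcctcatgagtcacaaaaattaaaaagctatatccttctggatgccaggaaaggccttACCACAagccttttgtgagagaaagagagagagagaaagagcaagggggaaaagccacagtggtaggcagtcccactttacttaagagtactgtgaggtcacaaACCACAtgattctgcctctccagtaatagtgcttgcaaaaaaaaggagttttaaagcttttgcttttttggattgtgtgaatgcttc

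In the P2 sequences and that of SUPT3H, which have no RUNX core, the capitals mark CpG dinucleotides. Shown are RUNX3 P2 (chr1:24930277-24930526, minus strand), RUNX1 P2 (chr21:34888700-34888949, minus strand) and RUNX2 P2 (chr6:45422025-45422274, plus strand). SUPT3H, whose start lies within RUNX2 on the opposite strand, is shown at its outer start (chr6:45377935-45378184, minus strand).
RUNX3 P2: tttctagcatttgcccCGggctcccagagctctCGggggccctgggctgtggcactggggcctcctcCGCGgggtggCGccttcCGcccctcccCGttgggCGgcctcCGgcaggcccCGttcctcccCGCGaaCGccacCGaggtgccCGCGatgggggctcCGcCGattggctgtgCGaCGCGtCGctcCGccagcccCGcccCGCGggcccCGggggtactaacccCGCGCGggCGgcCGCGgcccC
RUNX1 P2: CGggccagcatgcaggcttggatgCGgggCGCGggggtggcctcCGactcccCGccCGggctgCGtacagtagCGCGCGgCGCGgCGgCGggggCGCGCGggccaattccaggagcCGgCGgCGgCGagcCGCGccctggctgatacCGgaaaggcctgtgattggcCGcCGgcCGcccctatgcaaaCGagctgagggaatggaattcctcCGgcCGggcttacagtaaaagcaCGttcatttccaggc
RUNX2 P2: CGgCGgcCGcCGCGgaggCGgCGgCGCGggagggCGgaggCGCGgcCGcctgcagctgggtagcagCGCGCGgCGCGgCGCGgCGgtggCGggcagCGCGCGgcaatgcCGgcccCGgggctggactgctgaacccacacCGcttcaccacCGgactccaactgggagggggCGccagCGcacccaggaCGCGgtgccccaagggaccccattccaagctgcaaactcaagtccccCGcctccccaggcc
SUPT3H: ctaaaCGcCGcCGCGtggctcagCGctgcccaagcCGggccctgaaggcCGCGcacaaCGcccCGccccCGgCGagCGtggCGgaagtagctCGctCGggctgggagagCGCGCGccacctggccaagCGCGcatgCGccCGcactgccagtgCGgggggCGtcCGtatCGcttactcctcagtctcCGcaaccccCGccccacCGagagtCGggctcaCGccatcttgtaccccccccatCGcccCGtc

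The list and these sequences are in different builds, and no coordinate was converted. Instead, the length from a gene's 5' end to a start in GRCh38.p14 was set beside the length from its 5' end to a region in hg19. The spans of RUNX3, RUNX1 and RUNX2 differ by 17, 4 and 173 bp between the 2 annotations. A start is said to have a region where its length falls within the region's own lengths. Exons and introns were not analysed here.

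RUNX3 had a region at both of its promoters. The region at the distal end, chr1:25291432-25292123 in hg19, covered the gene's 5' end, with 511 bp upstream of it and 180 bp inside. It was 692 bp wide and had a score of 1000. The P1 start of the RefSeq table lies 128 bp inside the 5' end, within these bounds and 52 bp from the nearer edge. That margin is small for lengths compared across builds, in which the RUNX3 spans differ by 17 bp. The second region, chr1:25256224-25257381, lay from 34.23 to 35.39 kb into the gene, and the P2 start lies at 34.86 kb. This region was 1158 bp wide, the widest at RUNX3, and also had a score of 1000. The midpoints of both regions lay 35.0 kb apart in hg19, and the P1 and P2 starts lie 34.7 kb apart in GRCh38.p14. The start of RUNX3-AS1, a long noncoding RNA read in the other direction, lies at 34.68 kb, 181 bp from the P2 start, so the region spans both starts and cannot be assigned to one of them.

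The other RUNX3 regions lay upstream and close together. The first, chr1:25348864-25349772, was 909 bp wide and lay 57.25 to 58.16 kb upstream of the 5' end. The second, chr1:25358057-25359039, was 983 bp wide and lay 66.44 to 67.43 kb upstream. A gap of 8.28 kb separated them, and each had a score of 1000. In GRCh38.p14 the microRNA gene MIR4425 lies 58.4 kb upstream of RUNX3, next to the nearer region, and the noncoding gene LINC02793 from 76.0 to 83.7 kb upstream, beyond both. Whether these regions act on RUNX3 was not tested. No region was listed downstream of RUNX3 within 150 kb of its 3' end, nor in the last 30.2 kb of the gene itself.

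RUNX1 had a region at its distal end and none at its proximal promoter. The region chr21:36420967-36421915 covered the 5' end, with 320 bp upstream and 628 bp inside. It was 949 bp wide, the widest of the RUNX1 locus, and its score was 1000. The P2 start lies 160.6 kb into the gene in GRCh38.p14, and the nearest edge of a region was 22.4 kb from that length. The stretch without a region around it ran for 107.8 kb and made up 41.2% of the gene. Stretches of this length are common, as 27.6% of all gaps between neighbouring regions in the list were at least as long. The difference of 4 bp between the spans is small beside the 22.4 kb.

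RUNX1 held 5 regions within the gene, against 1 each in RUNX3 and RUNX2 when placed by midpoint. The RUNX3 region at P1 is not counted as inside because its midpoint lies 0.165 kb upstream of the 5' end. Counted by overlap with the gene it would be, which gives RUNX3 2 regions inside and leaves RUNX1 at 5 and RUNX2 at 1. Between the distal end and the length of P2, RUNX1 had a pair of regions 12.01 kb apart. They were chr21:36359189-36359923, 735 bp wide with a score of 843, and chr21:36346431-36347174, 744 bp wide with a score of 822. Past P2 lay chr21:36237783-36238625, 183.4 kb into the gene by its midpoint, 843 bp wide and with a score of 1000. The fifth, chr21:36218095-36218490, lay at 203.3 kb and was the narrowest of the 15 regions, at 396 bp, with the lowest score, 629. In GRCh38.p14 the antisense noncoding gene RUNX1-AS1 spans 164 to 213 kb into RUNX1, a range that takes in the last 2 regions.

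Outside the RUNX1 gene, the regions lay on the 3' side only. Upstream, no region was listed within 150 kb, and the first stood 178.3 kb from the 5' end, at chr21:36599486-36600317, outside the locus. Downstream, chr21:36080182-36080731 lay 79.64 kb past the 3' end, 550 bp wide with a score of 883. In GRCh38.p14 this length falls within CLIC6, which encodes a chloride intracellular channel protein. The last, chr21:36014535-36015189, lay 145.2 kb past the 3' end, between the lengths of CLIC6 and RCAN1, with a width of 655 bp and a score of 657. No region of RUNX1 away from the distal end, other than the one at 183.4 kb, had a score of 1000.

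RUNX2 had no region at either of its promoters. The 5' end lay in a stretch of 220.8 kb without a region, and 49.13 kb separated it from the nearest one. The P2 start lies 93.94 kb into the gene in GRCh38.p14, with the nearest region edge 43.6 kb from that length. A stretch of 298.9 kb without a region (chr6:45346274-45645138) held 77.4% of the gene, including the length of P2. Of all gaps between neighbouring regions in the list, 9.7% were at least as long as this stretch, and 13.8% at least as long as that of 220.8 kb.

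The 1 region within RUNX2, chr6:45345023-45346273, lay where another gene begins. It ran from 49.13 to 50.38 kb into RUNX2 and was 1251 bp wide, the widest of the 15 regions, with a score of 1000. SUPT3H, which encodes a subunit of a SAGA-type coactivator complex, is read from the opposite strand, and its RefSeq starts lie 49.33 and 49.6 kb into RUNX2. Both lengths fall within the region. The inner of the 2 starts lies 203 bp from the region's edge, close to the 173 bp by which the RUNX2 spans differ between builds, while the outer start lies deeper inside. SUPT3H extends from there to 519 kb upstream of RUNX2.

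The other 3 regions of the RUNX2 locus formed a cluster far past the 3' end. They were chr6:45645139-45645788, chr6:45649426-45650157 and chr6:45655176-45655680, at 126.6, 131.0 and 136.6 kb beyond it. Their widths were 650, 732 and 505 bp and their scores 930, 1000 and 709. The gaps between them were 3.64 and 5.02 kb, and the cluster spanned 10.5 kb. In GRCh38.p14 none of the genes of the table within 200 kb of RUNX2 lies at these lengths.

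**Figure D1:**
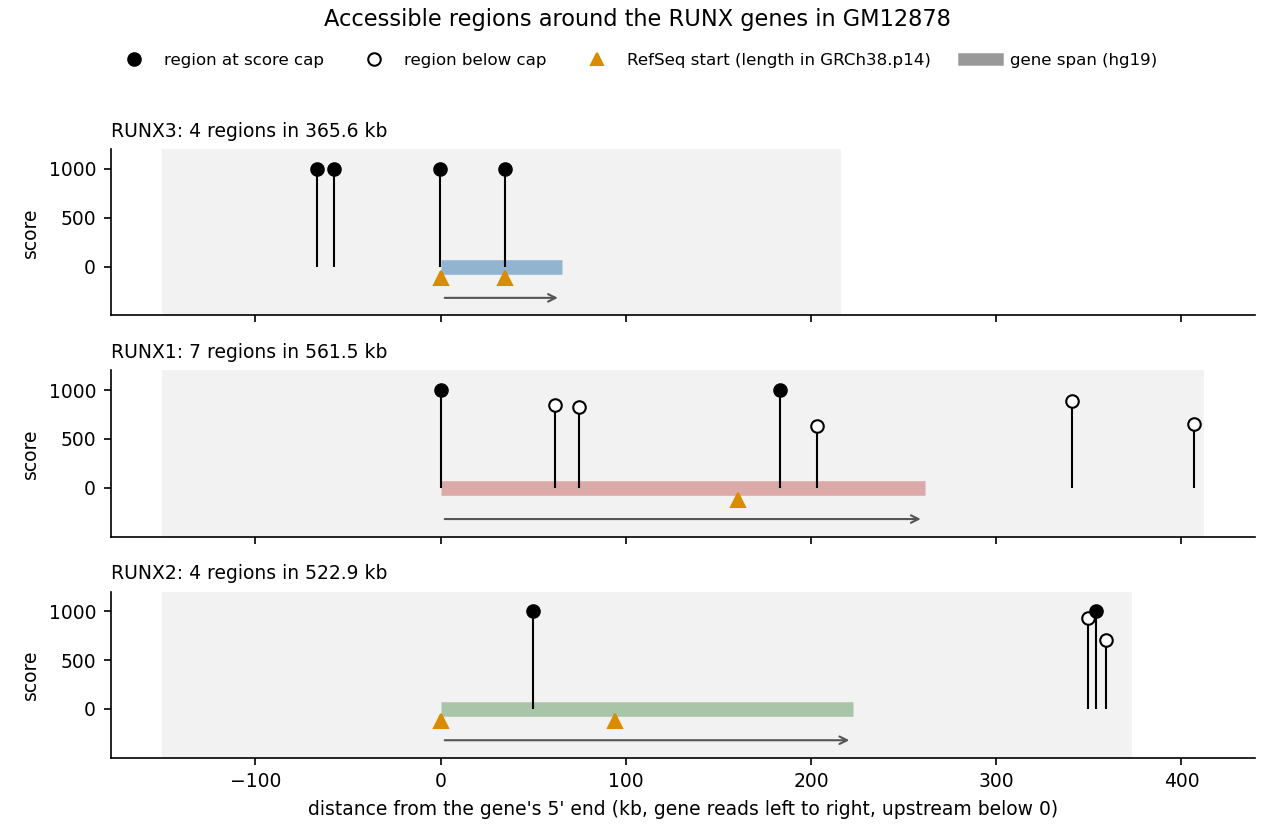
Position (horizontal axis, kb from the 5' end of each gene in hg19) and the authors' score (vertical axis) of the 15 regions, with gene spans as coloured bars, the window of 150 kb on either side in grey and RefSeq starts as triangles at their length in GRCh38.p14. RUNX3 has a region at both triangles, the RUNX1 triangle at 160.6 kb has none, and RUNX2 has none at either.

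Where the regions lay relative to the starts thus differed between the 3 genes. Of the 5 RUNX starts with a window in the table, RUNX3 P1 and P2 had a region and RUNX1 P2, RUNX2 P1 and RUNX2 P2 had none. The share of all 35116 promoter windows with a region was not computed, because the windows and the list are in different builds. Whether a start without a region is unusual in this list is therefore unknown. RUNX1 also had a region at its distal end, but this was placed by the end of the hg19 span, without a P1 window. The 3 genes are therefore not ranked by their starts. A region that is not listed is not read as closed chromatin, since the depth is unknown and the list's name reads as filtered. The regions are numbered in order of position from 2 to 23983, and 370 numbers are skipped in the list but 0 across the RUNX loci. Removal of regions before they were numbered would leave no skipped number and was not tested.

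CpG content did not separate starts with a region from starts without one. RUNX3 P2 had 38 CpG in its window of 300 bases, against 15 at RUNX3 P1, and both had a region. RUNX1 P2 had 40 CpG and RUNX2 P2 had 39, and neither had a region. The median over all 35116 promoter windows of the table was 14, with quartiles at 4 and 28, and 9.91% of windows had at least as many CpG as RUNX3 P2. RUNX2 P1 had 2 CpG and a GC content of 42.7%, against 66.3% at RUNX3 P1 and a median of 58.7% over all windows. The SUPT3H windows, where a region was listed, had 35 CpG at the outer and 27 at the inner start. These are properties of the reference sequence, not measurements of methylation or accessibility.

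**Figure D2:**
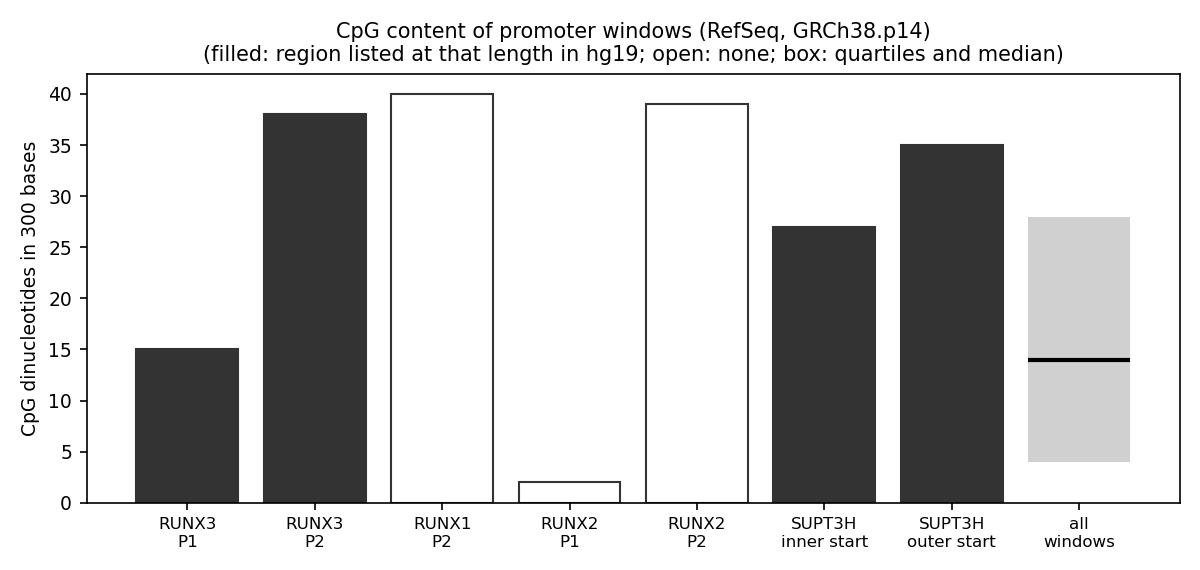
Number of CpG dinucleotides (vertical axis) in the RefSeq windows of 300 bases at the RUNX and SUPT3H starts, with the quartiles (4 and 28) and median (14) of all windows as a box on the right. Filled bars have a region at that length and open bars have none, and the open bars of RUNX1 P2 and RUNX2 P2, at 40 and 39, are as tall as the filled bar of RUNX3 P2, at 38.

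The RUNX core was found in the P1 windows of RUNX3 and RUNX2 and in none of the P2 windows. The table has no window for RUNX1 P1, so that promoter was not searched. On both strands, TGTGGT occurred 2 times in RUNX3 P1 and 4 times in RUNX2 P1, and 0 times in the P2 windows of the 3 genes. Of all promoter windows 13.1% held it at least once, 1.31% at least 2 times and 0.0142%, or 5 windows, at least 4 times. The longest stretch that the windows of RUNX3 P1 and RUNX2 P1 share is 18 bases long and holds 2 cores, in capitals here.
Shared stretch: caACCACAgaACCACAag

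In RUNX3 P1 this stretch begins 133 bases before the start (chr1:24965126-24965143 in GRCh38.p14, minus strand). In RUNX2 P1 it begins at base 15 after the start (chr6:45328344-45328361, plus strand), past the end of the sequence printed above. These 2 windows were the only ones of the 35116 that held it on either strand. Because the stretch was picked from these 2 windows, that count does not show it to be particular to RUNX genes. The stretch was looked for after the sequences had been seen. It lies at a start with a listed region in RUNX3 and at one without in RUNX2. A match is a description of the letters and does not show that a RUNX protein binds there.

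The RUNX3 locus was the one where every region had the highest score. At RUNX3 4 of 4 regions were at 1000, at RUNX1 2 of 7 (28.6%) and at RUNX2 2 of 4 (50.0%). Over the 3 loci, 8 of 15 regions (53.3%) were at the cap, against 60.1% of the whole list. RUNX1 scores ran from 629 to 1000 with a median of 843, and those of RUNX2 from 709 to 1000. With so few regions, exact (Clopper-Pearson) 95% binomial intervals for the share at the cap were 39.8% to 100% for RUNX3, 3.67% to 71.0% for RUNX1 and 6.76% to 93.2% for RUNX2. These intervals treat regions as independent, count regions and not cultures, and are not a test between loci, so nothing is concluded from their overlap. With 4, 7 and 4 regions in 1 list, a difference in score between the loci was not tested.

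The median width at each locus lay between the quartiles of the whole list. The median was 946 bp at RUNX3 (range 692 to 1158), 735 bp at RUNX1 (396 to 949) and 691 bp at RUNX2 (505 to 1251). Over the whole list the median was 756 bp, with quartiles at 547 and 1082 bp. Of the 15 regions 2 were 1000 bp wide or more, the one at RUNX3 P2 and the one at the start of SUPT3H. This is a lower share than the 29.8% of the whole list, but it rests on few regions. Regions at the score cap were the wider ones, with a median of 929 bp over the 8 at the cap and 650 bp over the 7 below it. The same held over the list, at 953 and 556 bp.

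**Figure D3:**
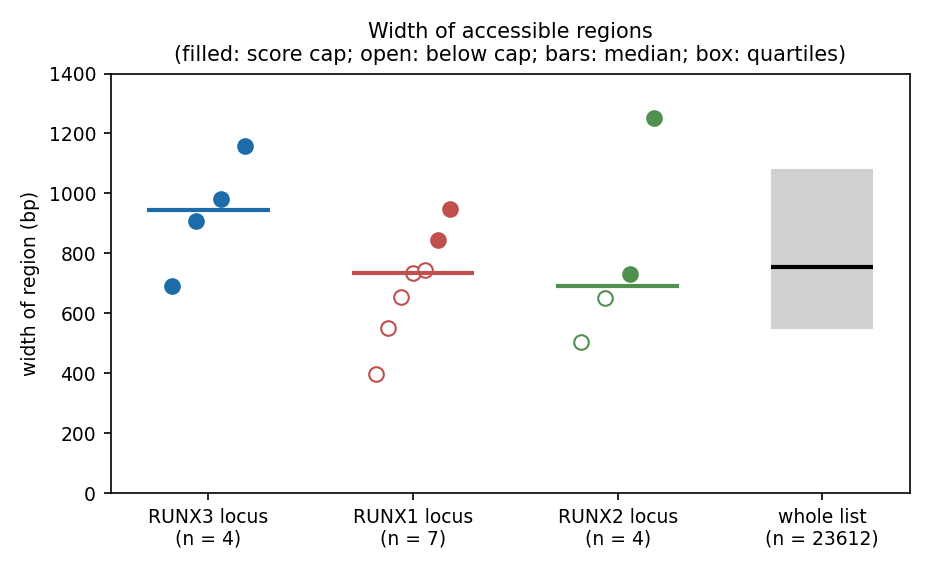
Width in bp (vertical axis) of each region at the 3 loci and, on the right, the quartiles of the whole list as a box with its median of 756 bp. Filled points are at the score cap and open points below it, and all 4 RUNX3 points are filled.

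Each locus held more regions than the median window of its length in the genome, and none held more than the upper quartile. RUNX3 had 4 regions in 365.6 kb (10.9 per Mb), RUNX1 7 in 561.5 kb (12.47 per Mb) and RUNX2 4 in 522.9 kb (7.65 per Mb). Chromosomes 1 to 22 and X held 7.72 regions per Mb. With centromeric, variable and stalk bands counted in, the chromosomes of RUNX3, RUNX1 and RUNX2 held 7.84, 4.53 and 9.43. Consecutive windows of the same lengths, without centromeric, variable and stalk bands, held a median of 2 regions at the length of RUNX3 (quartiles 1 and 5), 4 at that of RUNX1 (1 and 7) and 3 at that of RUNX2 (1 and 6). The windows were placed without regard to genes. At the lengths of RUNX3, RUNX1 and RUNX2, 24.2%, 15.1% and 17.3% of them held no region. RUNX1 lay on its upper quartile. On chromosome 21 alone, 59 windows of the RUNX1 length had a median of 2 and an upper quartile of 5.5, which RUNX1 exceeded. On chromosome 6 the windows of the RUNX2 length had a median of 4, the number at RUNX2. Regions covered 1.02% of the RUNX3 locus, 0.868% of RUNX1 and 0.6% of RUNX2, against 0.682% of chromosomes 1 to 22 and X.

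**Figure D4:**
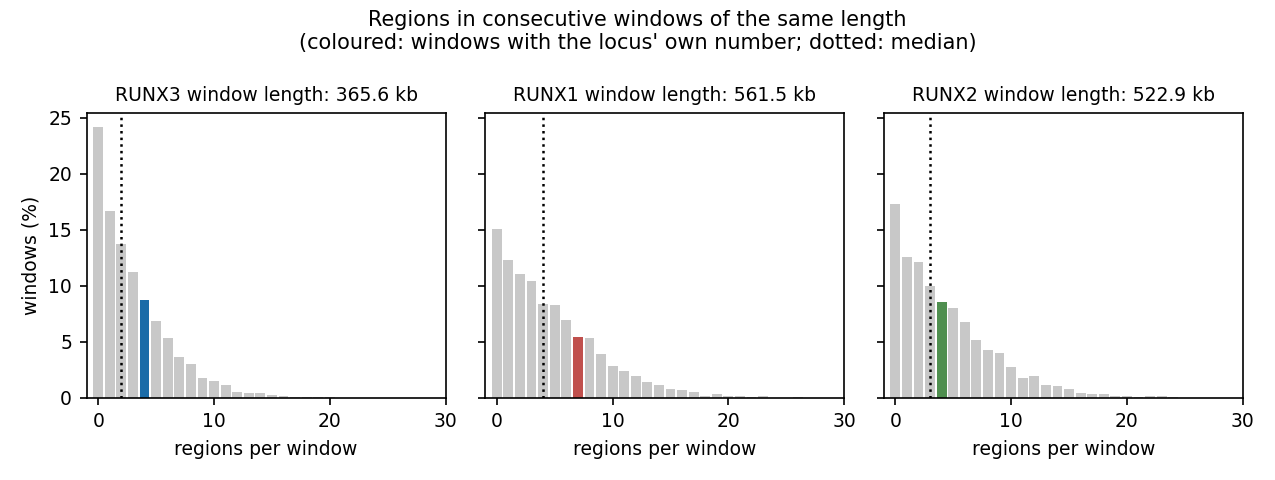
Share of consecutive windows (vertical axis, %) by their number of regions (horizontal axis), for windows as long as each locus, with the number found at the locus in colour and the median dotted. The loci stand at 4, 7 and 4 regions and the medians at 2, 4 and 3.

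Densities inside the genes rested on few regions, and their order depended on how a region over a 5' end was placed. By midpoint, the gene spans held 15.2 regions per Mb in RUNX3, 19.1 in RUNX1 and 4.49 in RUNX2, from 1, 5 and 1 regions. Counting any overlap as inside, a choice made after the data were seen, gave 30.5 in RUNX3, from 2 regions, and left the other two genes as they were, so that RUNX3 stood above RUNX1. The flanks held 10.0, 6.67 and 10.0 regions per Mb by midpoint, and 6.67, 6.67 and 10.0 by overlap. The genes are therefore not shown to differ in density. Clusters join regions across gaps up to a fixed distance, which took in the gap of 12.01 kb inside RUNX1 and left out that of 19.29 kb. There was 1 cluster per locus. It had 2 regions upstream of RUNX3, 2 inside RUNX1 and 3 downstream of RUNX2, so 7 of 15 regions had such a neighbour, against 42.2% of the whole list. RUNX3 and RUNX2 lie in light bands, 1p36.11 and 6p21.1, and RUNX1 in a band of intermediate stain, 21q22.12.

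The distance of 150 kb decides some counts. Inside it, the outermost regions were those 145.2 kb past RUNX1, 136.6 kb past RUNX2 and 66.94 kb upstream of RUNX3. Just outside stood a region 154.3 kb past the 3' end of RUNX3, at chr1:25071294-25072073 with a score of 1000, and one 159.3 kb past that of RUNX2, at chr6:45677506-45678667, also with a score of 1000. The next were 171.9 kb upstream of RUNX2, 172.5 kb past RUNX1 and 178.3 kb upstream of it. On the upstream side of RUNX3 the next region stood 267.4 kb from the 5' end.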

How the data were processed

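Accessible chromatin was measured by ATAC-seq in 2 libraries of GM12878, which form 1 group. The deposited list, in hg19 and without a header, gives positions, a number and a score per region, and serves both libraries. Per the submitters' processing notes, the tools included MACS2 2.1.0, bedtools 2.24.0 and BWA 0.7.13, with no role given for any of them. The list's name carries abbreviations that no label spells out. They read as an IDR cut of 0.05 and as filters for mappability, mitochondrial sequence and blacklisted regions. A shift of reads for the transposase, and calling per library or on pooled reads, are not given in the sources at hand.

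Starts were written 1-based. Spans of the RUNX genes came with the definition of the loci, and bands and chromosome lengths of hg19 from circlize 0.4.16. Consecutive windows began at base 1 of each chromosome. Promoters are those of the RefSeq table for GRCh38.p14, in 35116 windows of 27305 symbols, and neighbouring genes those of the RefSeq gene table of the same build. From these only lengths from the RUNX 5' ends were used beside the list. Calculations used Python 3.11.15 and pandas 2.3.3, and the counting was tested on simulated data with known counts.

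No test was made, since the list has no values per library. The members and lists were chosen with earlier results of these data known. All 15 regions are described, where the planned rule named those at starts, limits and in clusters and the widest, and neighbouring genes were named after the regions had been seen. CBFB, TLE1 to TLE4 and the marker genes of B, T and myeloid cells were not analysed here, because no annotation of hg19 was used for them, so the labelled cell type was not checked.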

Additional observations from a re-analysis of the deposited data

How the results depend on the processing

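Of 60 alternative values for 25 results, 42 stayed the same and 18 moved. Some of the 42 could not have moved, so this tally is not a measure of robustness. All 4 RUNX3 regions are at the cap, so keeping regions at the cap only leaves that locus unchanged. For the same reason its share at the cap stays at 100% within 50 and 100 kb. Counts of 0 also stay at 0 when only regions at the cap are kept. A count or median was the same if it stayed within 1.5 times, and a share if it stayed within its binomial interval. Those intervals are wide, such as 3.67% to 71.0% for RUNX1, and count regions, so a share called the same shows little. With the gene span alone the regions numbered 1 at RUNX3 and 1 at RUNX2; with 50 kb on either side they numbered 2 at RUNX3 and 1 at RUNX2, and with 100 kb 1 at RUNX2. At 50 and 100 kb, RUNX2 was left with the region at the start of SUPT3H, so its share at the cap was 100% and its median width 1251 bp. With regions at the score cap only, RUNX1 had 2 regions, 2 inside and 0 downstream, and RUNX2 had 2, with 1 downstream. Counting any overlap with the gene as inside, an alternative chosen after seeing the data, gave RUNX3 2 regions inside, or 30.5 per Mb. Joining at 5 kb left 1 cluster, and the score cap also left 1. Joining at 25 kb gave 4, so 1 cluster per locus holds only for the distance used. With 250 kb the loci of RUNX3, RUNX1 and RUNX2 held 5, 10 and 6 regions. The region at both RUNX3 promoters and at the distal end of RUNX1 is at the cap. No paired analysis was possible because both libraries share 1 list without values of their own, and no library could be left out. Depth is unknown, so a start without a region cannot be called closed. Lengths set side by side across builds assume no insertion or deletion between them beyond the differences of the spans.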

Other observations

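The other motifs searched in the 5 RUNX promoter windows gave these matches on both strands. The core of RBPJ, the DNA-binding partner of EBNA2 and Notch, TGGGAA, occurred 1 time at RUNX3 P1 and 0 times in the other 4, and 24.0% of all windows held it. The ETS core GGAA occurred 6 times at RUNX1 P2 and 2 times in each of the other 4, and 95.5% of all windows held it. The E-box CANNTG, bound by basic helix-loop-helix factors, occurred 1 time at RUNX3 P1, 2 times at RUNX3 P2, 0 times at RUNX1 P2, 2 times at RUNX2 P1 and 3 times at RUNX2 P2, and 68.7% of all windows held it. The TATA box TATAAA was found in none of the 5 windows and in 11.5% of all. A missing match says only that these letters are not in the window.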
